A study of Mus musculus with 12 samples.

Results

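The 34 genes described here carry glucose from the cell surface to pyruvate and lactate, through the pentose phosphate pathway, or into the mitochondrion as pyruvate. They were taken by gene symbol from a list chosen with earlier results of these data known. All 34 were found among the 24502 genes of the expression table. Of these 34, 22 belong to glycolysis and lactate handling, 7 to the pentose phosphate pathway and 5 to the entry of pyruvate into mitochondria. All 34 were among the 14827 genes that passed the filter on low counts and were tested.

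The study sequenced RNA from sorted mouse regulatory T (Treg) cells, the Foxp3-expressing CD4 T cells that restrain immune responses, in 12 libraries of 3 per group. The groups were unstimulated Gpx4-deficient cells, unstimulated wild-type cells, stimulated Gpx4-deficient cells and stimulated wild-type cells, all from animals labelled 11 weeks old. Gpx4-deficient cells carry the genotype Foxp3CreGpx4fl/fl, in which Cre expressed from Foxp3 removes the floxed Gpx4 alleles in Treg cells. Gpx4 encodes a selenoenzyme that reduces lipid peroxides, and its loss is known to open the way to ferroptosis. The wild-type animals are labelled WT, with no Foxp3Cre named, so an effect of Cre cannot be told apart from the loss of Gpx4. Stimulated cells were kept for 4 h on plates coated with anti-CD3 and anti-CD28 (5 µg/ml), and no culture time is given for unstimulated cells, so culture and stimulation cannot be told apart. The numbers in the library names run in separate blocks by genotype, so a batch effect on the libraries and an effect of genotype cannot be told apart either. Nothing in the labels says that the libraries of a group came from separate animals, so the p-values measure the spread between these libraries.

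Glycolysis splits glucose into pyruvate in the cytosol, first spending ATP on phosphorylation and then, from the triose phosphates on, yielding ATP and NADH. Lactate dehydrogenase turns pyruvate into lactate and restores NAD+, while the mitochondrial pyruvate carrier and the pyruvate dehydrogenase complex send pyruvate to the citric acid cycle. The pentose phosphate pathway branches off at glucose 6-phosphate and supplies ribose and NADPH, the reductant on which glutathione recycling depends. Effector T cells raise glycolysis on activation, and Treg cells are known to rely more on mitochondrial oxidation and to hold glycolysis down through Foxp3.

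Levels are given in CPM, the counts of a gene per 1000000 counts of its library on the TMM-scaled library size, and libraries held 24629230 to 31879267 counts. Genes were tested with edgeR's quasi-likelihood F test across all 14827 tested genes, and a gene is called higher or lower where the Benjamini-Hochberg adjusted p is under 0.05. The deleted gene followed the labels: Gpx4 had 4.96, 7.30 and 12.3 CPM in unstimulated Gpx4-deficient cells, against 147, 172 and 142 CPM in unstimulated wild-type cells, and 3.34, 9.23 and 8.52 CPM in stimulated Gpx4-deficient cells, against 107, 82.8 and 69.2 CPM in stimulated wild-type cells. Foxp3 was present in every library, at 22.3 to 36.7 CPM in unstimulated Gpx4-deficient and 20.6 to 26.8 CPM in unstimulated wild-type cells. With stimulation it had 47.9 to 75.9 CPM in Gpx4-deficient and 33.7 to 43.5 CPM in wild-type cells. No other cell type was sequenced beside these, so Foxp3 does not check the Treg label. The stimulated Gpx4-deficient libraries stood apart from the rest. Mitochondrially encoded genes took 2.52 to 3.25% of their counts, against 1.09 to 1.23% in stimulated wild-type cells, and they had 107 to 190 genes at 0 that averaged at least 5 CPM over the other libraries, against 25 to 69. Of 13 mitochondrially encoded genes, 11 were called higher in stimulated Gpx4-deficient than in stimulated wild-type cells. In unstimulated cells the mitochondrial share was 1.56 to 1.76% in Gpx4-deficient and 1.11 to 1.26% in wild-type libraries. Whether these differences have a part in the results was not tested. In bulk RNA, fewer cells that express a gene and less of its RNA per cell cannot be told apart.

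The promoters of 4 members are shown because the results turn on these genes: Ldha, the lone member called between genotypes, Hk2 and Slc16a1, the 2 called members with the largest rise on stimulation in wild-type cells, and Pdk1, the called member with the largest fall there. Each run holds the 250 bases before the transcription start in RefSeq (build GRCm38.p6), written 5′ to 3′ on the gene's strand. Capitals mark the letters CACGTG, the E box bound by MYC and USF factors, and ACGTG, the core of the hypoxia response element bound by HIF-1, each searched on both strands.
Ldha: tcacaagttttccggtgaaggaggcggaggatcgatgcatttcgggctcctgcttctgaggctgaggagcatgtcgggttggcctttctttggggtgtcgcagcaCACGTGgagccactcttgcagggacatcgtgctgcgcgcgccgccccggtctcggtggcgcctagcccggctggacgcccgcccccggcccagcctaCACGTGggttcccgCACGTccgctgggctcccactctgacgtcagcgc
Hk2: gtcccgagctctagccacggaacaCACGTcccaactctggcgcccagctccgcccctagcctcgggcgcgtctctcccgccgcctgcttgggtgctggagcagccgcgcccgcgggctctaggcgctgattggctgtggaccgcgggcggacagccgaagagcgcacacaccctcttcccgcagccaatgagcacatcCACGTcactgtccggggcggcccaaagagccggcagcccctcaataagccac
Slc16a1: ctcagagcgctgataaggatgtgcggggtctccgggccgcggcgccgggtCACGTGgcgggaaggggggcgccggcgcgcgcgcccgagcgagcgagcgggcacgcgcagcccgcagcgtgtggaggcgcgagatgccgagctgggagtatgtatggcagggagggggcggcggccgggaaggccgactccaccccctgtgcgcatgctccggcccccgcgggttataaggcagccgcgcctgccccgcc
Pdk1: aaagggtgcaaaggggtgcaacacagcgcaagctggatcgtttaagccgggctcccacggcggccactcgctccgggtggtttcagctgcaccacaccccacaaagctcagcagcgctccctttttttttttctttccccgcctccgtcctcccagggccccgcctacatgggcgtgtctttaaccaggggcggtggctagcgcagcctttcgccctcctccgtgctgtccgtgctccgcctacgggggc
The runs are those of Ldha (chr7:46845554-46845803, plus strand), Hk2 (chr6:82774455-82774704, minus strand), Slc16a1 (chr3:104638414-104638663, plus strand) and Pdk1 (chr2:71872974-71873223, plus strand). The RefSeq start used for Ldha lies 4329 bases from the outermost start of the gene in GENCODE. The Ldha run holds 2 E boxes and 1 further ACGTG, the Slc16a1 run 1 E box, the Hk2 run 2 copies of ACGTG outside an E box, and the Pdk1 run neither. RefSeq promoters were matched for 33 of the 34 members, all but Slc2a3. The letters ACGTG, which every E box contains, stood in 10 of these 33 (30.3%) and in 16.6% of all 32851 promoters of the same length. The 10 were Slc2a1, Hk2, Pfkm, Pfkfb3, Pgk1, Pgam1, Ldha, Slc16a1, Slc16a3 and Pdhb. E boxes stood in 3 of the 33 members, Pfkm, Ldha and Slc16a1 (9.09%), and in 6.02% of all promoters. These counts take 1 promoter per member, while a gene can have more than 1 among all promoters. Over all 48 promoters of the members, ACGTG stood in 15 and E boxes in 4. A match describes letters and does not show binding.

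Without stimulation no member was called between Gpx4-deficient and wild-type cells, but every gene of lower glycolysis had a lower mean in Gpx4-deficient cells. Of the 34 members, 27 had negative and 7 positive log2 fold changes (Gpx4-deficient over wild type), with a median of -0.22, where the median over all tested genes was 0.01. By edgeR 0 members were called (over all genes 0.0540% were called higher and 0.0135% lower), and by DESeq2 2 were, Gapdh and Pkm, both lower (0.484% of the 22109 genes DESeq2 tested were called lower). These 22109 include low-count genes that the edgeR filter removed, while all 34 members passed it. All DESeq2 shares given here are over this wider set. Unadjusted p was under 0.05 for 7 members, 20.6% of them, against 5.80% of all tested genes. These 7 were Tpi1, Gapdh, Pgk1, Pgam1, Eno1, Pkm and Ldha, all lower. In 12 members (35.3%) every Gpx4-deficient library lay below every wild-type library, against 9.89% of all tested genes. In 1 member, Slc2a3, every one lay above, against 8.42% of all tested genes. These shares were not compared at matched expression level. The members were chosen with earlier results of these data known, so an excess over all genes may reflect that choice.

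Lower glycolysis is taken here as the steps from triose phosphate to pyruvate (Tpi1, Gapdh, Pgk1, Pgam1, Eno1 and Pkm). This division was made after the values were seen. These 6 genes summed to 4763, 4572 and 4944 CPM in unstimulated Gpx4-deficient cells, against 6109, 6231 and 5835 CPM in unstimulated wild-type cells. The mean of the sums in Gpx4-deficient cells was 78.6% of that in wild-type cells, and the groups did not overlap. The 12 genes from glucose transport to aldolase summed to 2110.1, 2182 and 2129 CPM in unstimulated Gpx4-deficient cells, against 2152, 2096 and 1979.8 CPM in unstimulated wild-type cells, and these groups overlapped. The pentose phosphate genes summed to 756 to 824 CPM in Gpx4-deficient and 805 to 909 CPM in wild-type cells, and these groups overlapped. The pyruvate entry genes summed to 489.8 to 639 CPM in Gpx4-deficient and 629 to 708 CPM in wild-type cells, with overlap too.

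**Figure D1:**
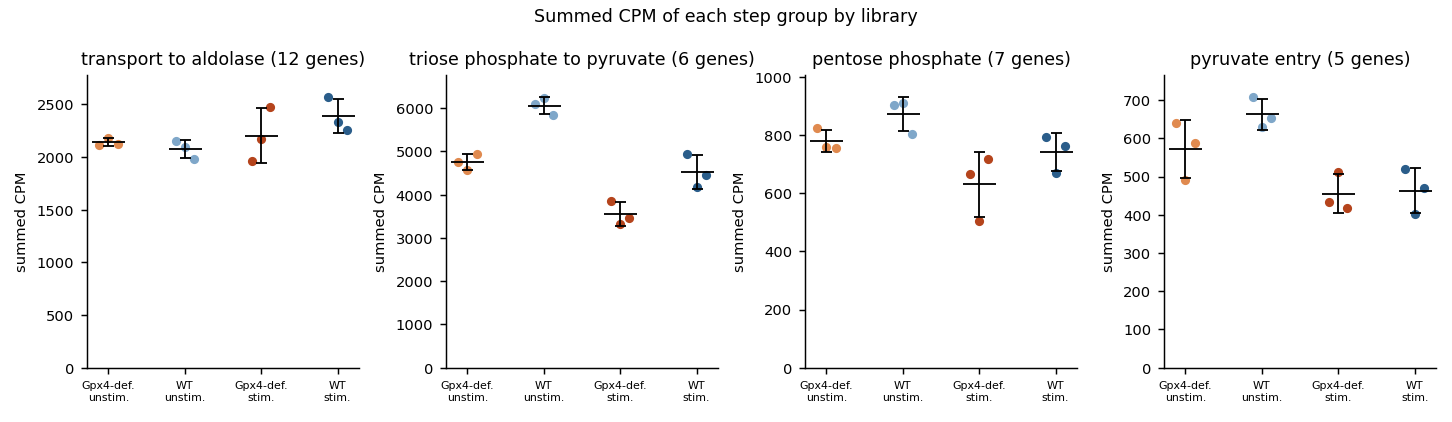
Summed CPM (vertical axis, from 0) of 4 step groups in each library, by group; points are libraries, bars the mean ± SD (n = 3). The triose phosphate to pyruvate sums lay at 4572 to 4944 in unstimulated Gpx4-deficient and 5835 to 6231 in unstimulated wild-type cells, and at 3331 to 3859 in stimulated Gpx4-deficient and 4174 to 4946 in stimulated wild-type cells.

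In unstimulated cells 5 of the 6 lower glycolysis genes and Ldha had groups that did not overlap. Gapdh, glyceraldehyde 3-phosphate dehydrogenase, which makes the NADH of glycolysis, had 1383, 1385 and 1434 CPM in unstimulated Gpx4-deficient cells, against 1698, 1773 and 1668 CPM in unstimulated wild-type cells (log2 fold change -0.29 with SE 0.07, unadjusted p = 0.00215, adjusted p = 0.332, by edgeR). Its Gpx4-deficient libraries stood within a narrow band below all wild-type ones. Pkm had 1270.5, 1216 and 1306 CPM in unstimulated Gpx4-deficient cells, against 1694, 1702 and 1667 CPM in unstimulated wild-type cells (log2 fold change -0.42 with SE 0.12, unadjusted p = 0.00392, adjusted p = 0.433, by edgeR). Pkm encodes pyruvate kinase, the last step of glycolysis, and its groups were also apart. Eno1 had 1744, 1623 and 1774 CPM in unstimulated Gpx4-deficient cells, against 2126, 2176 and 2009 CPM in unstimulated wild-type cells (log2 fold change -0.30 with SE 0.09, unadjusted p = 0.00633, adjusted p = 0.537, by edgeR). Eno1, enolase, makes phosphoenolpyruvate, and its highest Gpx4-deficient library lay below its lowest wild-type one. Ldha had 829, 928 and 1311 CPM in unstimulated Gpx4-deficient cells, against 1581, 1599.8 and 1447 CPM in unstimulated wild-type cells (log2 fold change -0.59 with SE 0.18, unadjusted p = 0.00729, adjusted p = 0.576, by edgeR). Ldha encodes the lactate dehydrogenase subunit common in glycolytic tissue, and Gpx4-deficient replicate 3 came closest to the wild-type range. Pgam1 had 74.6, 95.3 and 126 CPM in unstimulated Gpx4-deficient cells, against 142, 148 and 131 CPM in unstimulated wild-type cells (log2 fold change -0.51 with SE 0.17, adjusted p = 0.689, by edgeR). Pgam1, phosphoglycerate mutase, had its highest Gpx4-deficient library just under its lowest wild-type one. Tpi1 had 173, 143 and 154 CPM in unstimulated Gpx4-deficient cells, against 246, 249 and 215 CPM in unstimulated wild-type cells (log2 fold change -0.59 with SE 0.25, adjusted p = 0.861, by edgeR). Tpi1, triose phosphate isomerase, feeds both trioses into the steps that follow. Pgk1, phosphoglycerate kinase, had 109.8 to 149 CPM in Gpx4-deficient and 145 to 203 CPM in wild-type cells, and its groups overlapped by 1 library (-0.49, SE 0.21). None of these 7 was called when any 1 library of the comparison was left out.

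The other members differed less, or varied more between libraries, in unstimulated cells. Hk2, the inducible hexokinase, had 1.37, 6.65 and 5.55 CPM in Gpx4-deficient cells, against 10.3, 8.35 and 11.1 CPM in wild-type cells (log2 fold change -1.13, SE 0.52), all low values that did not overlap. Slc2a3, the glucose transporter GLUT3, had 189, 173 and 160.1 CPM in Gpx4-deficient cells, against 127, 127 and 128 CPM in wild-type cells, above them in each library, with a log2 fold change of 0.45 (SE 0.91). The fit gives each gene 1 dispersion over all 4 groups, and this gene spread widely among stimulated libraries. Ldhb, the lactate dehydrogenase subunit common in oxidative tissue, had 80.2, 82.2 and 101 CPM in Gpx4-deficient and 110.5, 111 and 115 CPM in wild-type cells (-0.35, SE 0.21). Of the pentose phosphate genes, Pgls and Taldo1 lay apart and lower in Gpx4-deficient cells, with log2 fold changes of -0.36 (SE 0.23) and -0.29 (SE 0.22). G6pdx, the entry enzyme that sets NADPH supply, overlapped at 0.20 (SE 0.25), as did Pgd, Tkt, Rpia and Rpe. All 5 pyruvate entry genes had negative values, from -0.38 for Pdk1 (SE 0.39), the kinase that switches pyruvate dehydrogenase off, to -0.04 for Mpc1 (SE 0.17). Of these 5, Pdk1 lay apart and the others overlapped.

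**Figure D2:**
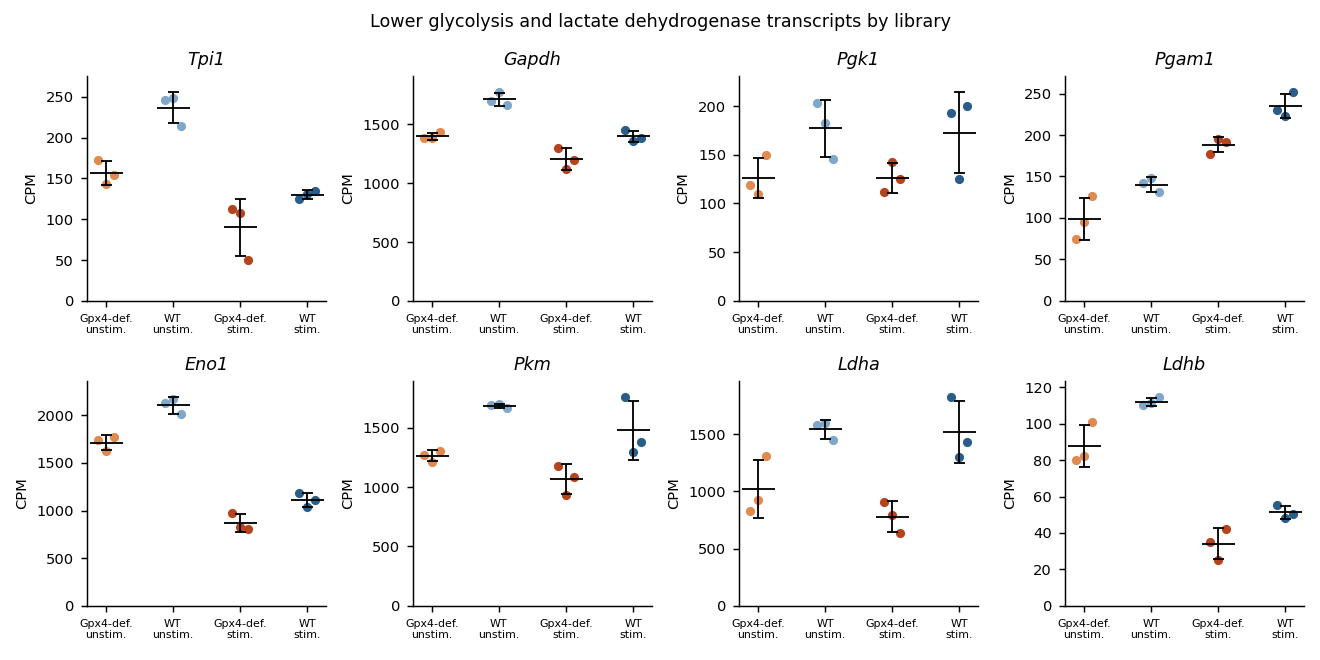
CPM (vertical axis, from 0) of 6 genes of lower glycolysis and both lactate dehydrogenase genes in each library; points are libraries, bars the mean ± SD (n = 3). In unstimulated cells every Gpx4-deficient library lay below every wild-type library for 7 of the 8 genes, all but Pgk1.

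With stimulation, Ldha was the 1 member called between genotypes, and it was lower in Gpx4-deficient cells. It had 910.3, 791 and 638 CPM in stimulated Gpx4-deficient cells, against 1823, 1304 and 1432 CPM in stimulated wild-type cells, so the lowest wild-type library lay above the highest Gpx4-deficient one. The mean was 779.7 ± 137 CPM in stimulated Gpx4-deficient cells, against 1519.6 ± 270.2 CPM in stimulated wild-type cells (SD, n = 3 each), a ratio of 51.3% (log2 fold change -0.96 with SE 0.18, adjusted p = 0.0218, by edgeR). The call was lost without stimulated wild-type replicate 1 or 3 (0.0911 and 0.0559), and in a fit of the 6 stimulated libraries alone (0.130). The DESeq2 adjusted p was 0.000143. Ldha spans chr7:46841475-46855627 on the plus strand (GRCm38, GENCODE vM21), and its promoter with 2 E boxes is printed above.

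The call on Ldha stood at 2.94% of the 34 members, where 1.25% of all tested genes were called lower, and 0 members were called higher by edgeR or by DESeq2, where edgeR called 1.03% of all genes higher. By DESeq2, which called 4.44% of its genes lower, 6 members were called lower: Gapdh, Eno1, Pkm, Ldha, Ldhb and Slc16a1. Unadjusted p was under 0.05 for 7 members (20.6%), the same 6 and Tkt, all lower, against 18.3% of all tested genes. In 8 members (23.5%) every stimulated Gpx4-deficient library lay below every wild-type one, against 11.9% of all tested genes, and in 1, Mpc1, every one lay above, against 8.29%. The median over the 34 members was -0.28, with 25 negative and 9 positive, and the median over all tested genes was 0.00. Lower glycolysis summed to 3859, 3331 and 3455 CPM in stimulated Gpx4-deficient cells, against 4946, 4174 and 4464 CPM in stimulated wild-type cells, 78.4% of the wild-type mean. That share was close to the 78.6% of unstimulated cells.

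Besides Ldha, 5 members had the smallest p-values between stimulated groups. Pkm had 1183, 937 and 1089 CPM in stimulated Gpx4-deficient cells, against 1759, 1294 and 1385 CPM in stimulated wild-type cells (log2 fold change -0.47 with SE 0.12, adjusted p = 0.0649, by edgeR). Eno1 had 972, 828 and 805 CPM in stimulated Gpx4-deficient cells, against 1187, 1039.7 and 1108 CPM in stimulated wild-type cells (log2 fold change -0.36 with SE 0.09, adjusted p = 0.0661, by edgeR). Pyruvate kinase and enolase thus both lay apart between genotypes and missed the threshold narrowly. Slc16a1, the lactate exporter MCT1, had 127, 61.0 and 52.8 CPM in stimulated Gpx4-deficient cells, against 155, 132 and 188 CPM in stimulated wild-type cells (log2 fold change -0.98 with SE 0.31, adjusted p = 0.131, by edgeR). In Slc16a1, replicate 1 of the Gpx4-deficient cells nearly reached the wild-type range and the other 2 lay far under it. Gapdh had 1303, 1120.5 and 1194 CPM in stimulated Gpx4-deficient cells, against 1452, 1362 and 1385 CPM in stimulated wild-type cells (log2 fold change -0.22 with SE 0.07, adjusted p = 0.161, by edgeR). Ldhb had 35.1, 25.0 and 42.2 CPM in stimulated Gpx4-deficient cells, against 55.2, 48.3 and 50.2 CPM in stimulated wild-type cells (log2 fold change -0.59 with SE 0.21, adjusted p = 0.177, by edgeR). Both of these genes had non-overlapping groups. Calls in this comparison depended on single libraries. Without stimulated Gpx4-deficient replicate 1, 7 members were called lower: Pkm (adjusted p = 0.0284, by edgeR), Eno1 (0.0175), Slc16a1 (0.00904), Tkt (0.0137), Pfkm (0.0016), Pfkfb4 (0.0485) and Ldha. Over all genes 375 of 15914 were then called lower, against 185 of 14827 with every library. Leaving out stimulated Gpx4-deficient replicate 2 or 3 also raised the all-gene count, to 384 and 249. Without stimulated wild-type replicate 1 or replicate 3, 0 members were called lower, and 58 and 79 genes over all genes.

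Several upper-glycolysis and regulatory genes split the stimulated Gpx4-deficient libraries. Pfkm, the muscle-type phosphofructokinase, had 13.4, 0.123 and 0.226 CPM in stimulated Gpx4-deficient cells, which is 372, 4 and 6 counts, against 18.9, 9.62 and 11.4 CPM in stimulated wild-type cells. Slc2a3 had 0.215, 14.1 and 39.0 CPM in stimulated Gpx4-deficient cells, against 62.5, 51.9 and 29.1 CPM in stimulated wild-type cells. In Pfkm the low libraries were replicates 2 and 3, and in Slc2a3 the near-absent one was replicate 1, with 6 counts. Pfkfb4, which sets the allosteric activator of phosphofructokinase, had 8.33, 0.247 and 0.151 CPM in Gpx4-deficient and 12.8, 22.5 and 5.46 CPM in wild-type cells. Aldoc, a minor aldolase here, had 16.3, 0.123 and 0.0377 CPM in Gpx4-deficient and 5.00, 3.13 and 0 CPM in wild-type cells. Over all genes too, values of 0 in single libraries were most frequent in this group, as given above. Tpi1 and Pgam1, at -0.53 (SE 0.25) and -0.32 (SE 0.17), completed the 8 members that lay apart and lower, and 25 of the 34 overlapped between the stimulated groups. G6pdx stood at -0.03 (SE 0.25) and Mpc1, a subunit of the mitochondrial pyruvate carrier, at 0.22 (SE 0.17), with 101, 99.4 and 124 CPM in Gpx4-deficient and 98.0, 91.7 and 89.2 CPM in wild-type cells.

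**Figure D3:**
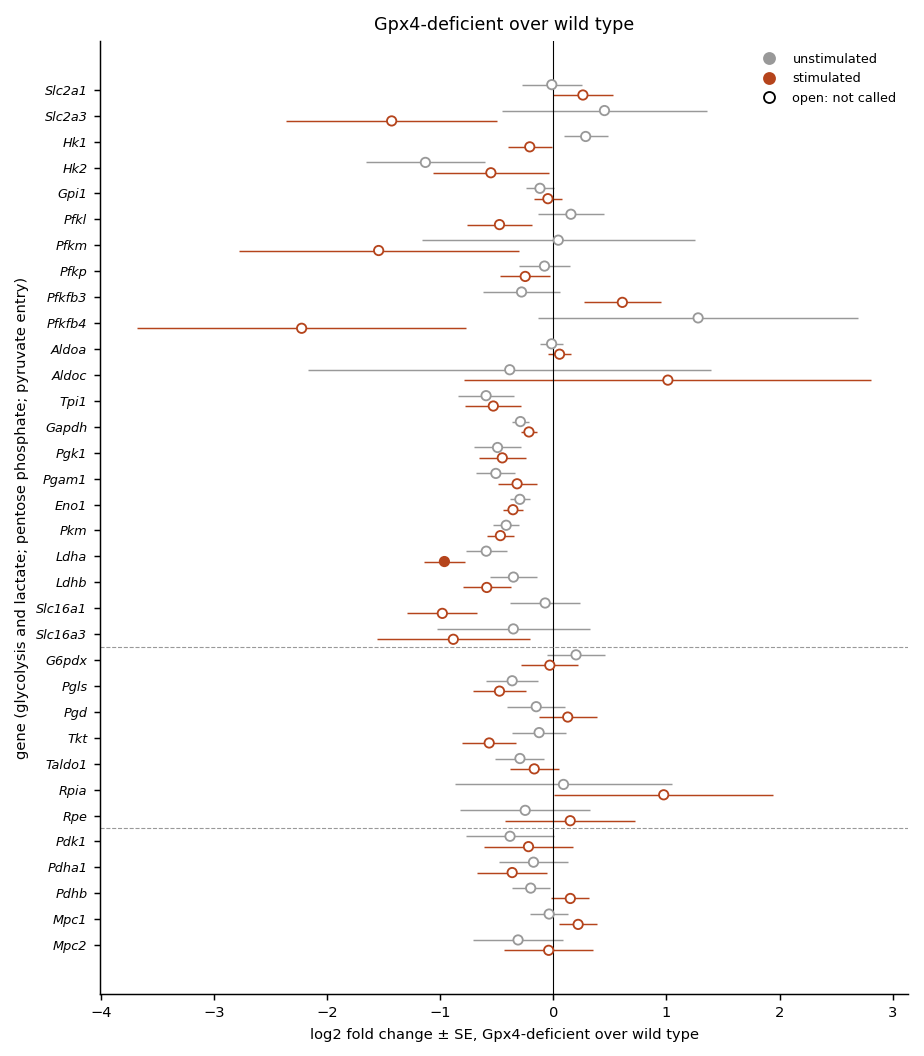
log2 fold change of Gpx4-deficient over wild type (horizontal axis) with its SE for the 34 members (vertical axis), in unstimulated and in stimulated cells; dashed lines part the 3 gene groups and filled points are called. Ldha in stimulated cells, at -0.96, is the 1 filled point.

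The difference between genotypes was not itself shown to change with stimulation. In the test of the interaction, in which the wild-type response to stimulation is taken from the Gpx4-deficient one, edgeR called 0 of 34 members, against 0.202% of all tested genes. No member had an unadjusted p under 0.05 (8.75% of all tested genes did), and DESeq2 called 0. The smallest unadjusted p was that of Slc16a1, 0.0597, with a log2 difference of -0.91 (SE 0.44). For Ldha the difference was -0.37 (SE 0.26, unadjusted p = 0.177, adjusted p = 0.749, by edgeR), and for Pkm, Eno1 and Gapdh it lay at -0.05, -0.06 and 0.08, with SE of 0.16, 0.13 and 0.11. Without stimulated Gpx4-deficient replicate 1, Pfkm was called in this test (adjusted p = 0.0098, by edgeR).

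Stimulation raised some members and lowered others in both genotypes. In Gpx4-deficient cells edgeR called 6 members higher (17.6%, against 7.45% of all tested genes) and 7 lower (20.6%, against 7.83%). In wild-type cells it called 4 higher (11.8%, against 6.12%) and 6 lower (17.6%, against 5.41%). DESeq2 called 8 higher and 10 lower in Gpx4-deficient cells, where it called 8.40% of its genes higher and 9.48% lower. In wild-type cells it called 5 higher and 6 lower, where it called 6.35% of its genes higher and 6.76% lower. The calls it made beyond those of edgeR were Pfkfb3 and Rpia higher and Tpi1, Gapdh and Tkt lower in Gpx4-deficient cells, and Mpc1 higher in wild-type cells. Hk2, Pfkp, Pgam1 and Slc16a1 were higher in both, which is 4 of the 6 and 4 of the 4. Eno1, Ldhb, Taldo1 and Pdk1 were lower in both, which is 4 of the 7 and 4 of the 6. In a fit of the 6 Gpx4-deficient libraries alone, the calls there were 2 higher, Hk2 and Pfkp, and 2 lower, Eno1 and Ldhb. Of the 12739 genes tested in that fit, 504 were called higher and 518 lower. The medians over the 34 members were -0.23 in Gpx4-deficient and -0.19 in wild-type cells, against -0.02 and -0.03 over all tested genes.

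At the entry of glucose, Hk2 rose in both genotypes, and Slc2a3 and Hk1 fell in Gpx4-deficient cells. Hk2 had 63.7, 27.3 and 39.4 CPM in stimulated Gpx4-deficient cells, against 1.37, 6.65 and 5.55 CPM in unstimulated Gpx4-deficient cells (log2 fold change 3.26 with SE 0.56, adjusted p = 0.00209, by edgeR). Hk2 had 84.0, 58.4 and 48.8 CPM in stimulated wild-type cells, against 10.3, 8.35 and 11.1 CPM in unstimulated wild-type cells (log2 fold change 2.69 with SE 0.55, adjusted p = 0.00644, by edgeR). Every stimulated library lay far above every unstimulated one, and both calls held when any 1 library of the comparison was left out. Slc2a3 had 0.215, 14.1 and 39.0 CPM in stimulated Gpx4-deficient cells, against 189, 173 and 160.1 CPM in unstimulated ones (log2 fold change -3.29 with SE 0.99, adjusted p = 0.0438, by edgeR). In wild-type cells it had 62.5, 51.9 and 29.1 CPM with stimulation, against 127, 127 and 128 CPM without (log2 fold change -1.41 with SE 0.93, adjusted p = 0.426, by edgeR). Slc2a3 was lower in every stimulated library of either genotype, and called in Gpx4-deficient cells. That call was lost without unstimulated Gpx4-deficient replicate 1, 2 or 3 (0.0885, 0.0863 and 0.081) or stimulated Gpx4-deficient replicate 2 (0.102). Slc2a1, the transporter GLUT1, had 87.7 to 132 CPM in stimulated Gpx4-deficient cells, against 60.1 to 87.2 CPM in unstimulated ones, and was not called in either genotype (0.65 and, in wild type, 0.37). Hk1, the constitutive hexokinase, had 141, 213 and 263 CPM in stimulated Gpx4-deficient cells, against 361, 304 and 360.4 CPM in unstimulated ones (log2 fold change -0.73 with SE 0.20, adjusted p = 0.0262, by edgeR). In wild-type cells it had 243, 220.1 and 249 CPM with stimulation, against 283, 243 and 315 CPM without, and was not called (log2 fold change -0.24 with SE 0.20, adjusted p = 0.561, by edgeR). The interaction missed the threshold too (adjusted p = 0.657, by edgeR), and the call in Gpx4-deficient cells was lost without unstimulated Gpx4-deficient replicate 1 or 3 (0.0828 and 0.0808).

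At phosphofructokinase, the main point of control, the platelet-type gene Pfkp rose in both genotypes and the liver-type gene Pfkl fell in Gpx4-deficient cells. Pfkp had 368, 585 and 639.6 CPM in stimulated Gpx4-deficient cells, against 191, 249 and 297 CPM in unstimulated Gpx4-deficient cells (log2 fold change 1.11 with SE 0.23, adjusted p = 0.00590, by edgeR). Pfkp had 610.1, 659 and 623 CPM in stimulated wild-type cells, against 258, 318 and 202 CPM in unstimulated wild-type cells (log2 fold change 1.28 with SE 0.23, adjusted p = 0.00263, by edgeR). Every stimulated library lay above every unstimulated one in both genotypes, and no single library of the comparison decided these calls. Pfkl had 165, 82.2 and 71.0 CPM in stimulated Gpx4-deficient cells, against 276, 223 and 163 CPM in unstimulated ones (log2 fold change -1.06 with SE 0.29, adjusted p = 0.0300, by edgeR). In wild-type cells Pfkl had 152, 157 and 133 CPM with stimulation, against 226, 174 and 194 CPM without, which was not called (-0.43, SE 0.29). The Pfkl call was lost without unstimulated Gpx4-deficient replicate 1 or 2 (0.123 and 0.0844) or stimulated Gpx4-deficient replicate 2 or 3 (0.0952 and 0.0807). Pfkfb3, which makes the activator fructose 2,6-bisphosphate, stood at 1.02 (SE 0.34) in Gpx4-deficient cells and 0.13 (SE 0.34) in wild-type cells, not called in either by edgeR. It was called in Gpx4-deficient cells by DESeq2 (adjusted p = 0.0110), and by edgeR without stimulated Gpx4-deficient replicate 1 or 2 (0.0457 and 0.0413). Pfkm and Pfkfb4 were called lower there only without stimulated Gpx4-deficient replicate 1 (0.000107 and 0.0311), as was Aldoc (0.0455). Aldoa, the main aldolase, had 694, 749 and 770.3 CPM in stimulated Gpx4-deficient cells, against 529.6, 642 and 572 CPM in unstimulated ones (log2 fold change 0.34 with SE 0.10, adjusted p = 0.0449, by edgeR). This small rise lost its call without unstimulated Gpx4-deficient replicate 1 or 3 (0.0961 and 0.0896) or stimulated Gpx4-deficient replicate 2 or 3 (0.0593 and 0.105). In wild-type cells Aldoa stood at 0.27 (SE 0.10, adjusted p = 0.131, by edgeR).

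In lower glycolysis the steps parted: Pgam1 rose while its neighbour Eno1 fell. Pgam1 had 178, 195 and 192 CPM in stimulated Gpx4-deficient cells, against 74.6, 95.3 and 126 CPM in unstimulated Gpx4-deficient cells (log2 fold change 0.93 with SE 0.17, adjusted p = 0.00355, by edgeR). Pgam1 had 231, 223 and 251 CPM in stimulated wild-type cells, against 142, 148 and 131 CPM in unstimulated wild-type cells (log2 fold change 0.74 with SE 0.17, adjusted p = 0.0151, by edgeR). The wild-type call on Pgam1 was lost without unstimulated wild-type replicate 1 or 3 (0.0517 and 0.0621) or stimulated wild-type replicate 3 (0.0607). Eno1 had 972, 828 and 805 CPM in stimulated Gpx4-deficient cells, against 1744, 1623 and 1774 CPM in unstimulated Gpx4-deficient cells (log2 fold change -0.98 with SE 0.09, adjusted p = 1.77e-05, by edgeR). Eno1 had 1187, 1039.7 and 1108 CPM in stimulated wild-type cells, against 2126, 2176 and 2009 CPM in unstimulated wild-type cells (log2 fold change -0.92 with SE 0.09, adjusted p = 2.82e-05, by edgeR). Eno1 was at 50.7% of its unstimulated mean in Gpx4-deficient cells and 52.8% in wild-type cells. Its calls held when any 1 library of the comparison was left out. Tpi1 had 125, 131 and 135 CPM in stimulated wild-type cells, against 246, 249 and 215 CPM in unstimulated ones (log2 fold change -0.86 with SE 0.25, adjusted p = 0.0455, by edgeR), and its call was lost without unstimulated wild-type replicate 1, 2 or 3 (0.142, 0.149 and 0.101) or stimulated wild-type replicate 1, 2 or 3 (0.162, 0.138 and 0.126). In Gpx4-deficient cells Tpi1 had 112, 108 and 49.4 CPM with stimulation, against 173, 143 and 154 CPM without (log2 fold change -0.80 with SE 0.25, adjusted p = 0.0513, by edgeR), and it was called by DESeq2 (0.0172), and by edgeR without stimulated Gpx4-deficient replicate 1, 2 or 3 (0.041, 0.0456 and 0.0308). Gapdh, often used as a reference gene, fell in wild-type cells by a small amount (log2 fold change -0.29 with SE 0.07, adjusted p = 0.0241, by edgeR), and the call was lost without unstimulated wild-type replicate 2 or 3 (0.0784 and 0.0538) or stimulated wild-type replicate 1, 2 or 3 (0.0528, 0.0631 and 0.0625). In Gpx4-deficient cells Gapdh stood at -0.22 (SE 0.07, adjusted p = 0.0732, by edgeR) and was called by DESeq2 (0.00274), and by edgeR without stimulated Gpx4-deficient replicate 1 (0.0288). Pgk1 and Pkm were not called in either genotype, with Pgk1 at 0.00 and -0.04, and Pkm at -0.24 and -0.19, in Gpx4-deficient and in wild-type cells.

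At lactate, Ldhb fell and the exporter Slc16a1 rose, while Ldha was not called. Ldhb had 35.1, 25.0 and 42.2 CPM in stimulated Gpx4-deficient cells, against 80.2, 82.2 and 101 CPM in unstimulated Gpx4-deficient cells (log2 fold change -1.36 with SE 0.22, adjusted p = 0.00109, by edgeR). Ldhb had 55.2, 48.3 and 50.2 CPM in stimulated wild-type cells, against 110.5, 111 and 115 CPM in unstimulated wild-type cells (log2 fold change -1.13 with SE 0.21, adjusted p = 0.00388, by edgeR). Both calls held when any 1 library of the comparison was left out. Ldha stood at -0.39 (SE 0.18, adjusted p = 0.175, by edgeR) in Gpx4-deficient and -0.02 (SE 0.18) in wild-type cells. Slc16a1 had 127, 61.0 and 52.8 CPM in stimulated Gpx4-deficient cells, against 32.5, 37.7 and 39.0 CPM in unstimulated Gpx4-deficient cells (log2 fold change 1.14 with SE 0.31, adjusted p = 0.0284, by edgeR). Slc16a1 had 155, 132 and 188 CPM in stimulated wild-type cells, against 30.5, 42.5 and 41.9 CPM in unstimulated wild-type cells (log2 fold change 2.05 with SE 0.32, adjusted p = 0.00105, by edgeR). The rise of Slc16a1 was larger in wild-type libraries, without passing the interaction test, and its call in Gpx4-deficient cells was lost without unstimulated Gpx4-deficient replicate 1, 2 or 3 (0.0847, 0.0697 and 0.0687) or stimulated Gpx4-deficient replicate 1 (0.0748). Slc16a3, the exporter MCT4, had 32.1, 23.6 and 3.51 CPM in stimulated and 10.9, 9.88 and 6.26 CPM in unstimulated Gpx4-deficient cells, and 52.4, 26.5 and 30.3 CPM in stimulated and 13.3, 14.7 and 6.57 CPM in unstimulated wild-type cells. It was not called (1.13 and 1.66), except in Gpx4-deficient cells without stimulated Gpx4-deficient replicate 3 (0.0399).

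In the pentose phosphate pathway edgeR called 1 of 7 genes on stimulation, Taldo1 or transaldolase, of the non-oxidative branch, and it fell in both genotypes. This is 14.3% of the 7, against 7.83% of all tested genes called lower in Gpx4-deficient and 5.41% in wild-type cells. Taldo1 had 106, 80.1 and 153 CPM in stimulated Gpx4-deficient cells, against 228, 158 and 206 CPM in unstimulated Gpx4-deficient cells (log2 fold change -0.81 with SE 0.22, adjusted p = 0.0270, by edgeR). Taldo1 had 127, 115 and 138 CPM in stimulated wild-type cells, against 229.9, 254 and 243 CPM in unstimulated wild-type cells (log2 fold change -0.93 with SE 0.22, adjusted p = 0.0152, by edgeR). The interaction was 0.13 (SE 0.31), and the calls were lost without unstimulated Gpx4-deficient replicate 1 or 3 (0.0919 and 0.0718) or stimulated Gpx4-deficient replicate 1 or 2 (0.0636 and 0.0602) in Gpx4-deficient cells, and without stimulated wild-type replicate 1 or 2 (0.0523 and 0.0609) in wild-type cells. The oxidative genes G6pdx, Pgls and Pgd lay between -0.30 and 0.34 in Gpx4-deficient cells and between -0.19 and 0.53 in wild-type cells, none called. Tkt was at -0.68 (SE 0.24) in Gpx4-deficient cells, and was called lower there by DESeq2 (adjusted p = 0.0365), and by edgeR without stimulated Gpx4-deficient replicate 1 (0.00164). Rpia and Rpe, which interconvert the pentose phosphates, varied in stimulated Gpx4-deficient cells, where replicate 3 was highest for both. DESeq2 called Rpia higher with stimulation in Gpx4-deficient cells (adjusted p = 0.0335), and edgeR did not. Rpia had 6.32, 3.18 and 23.6 CPM there, and Rpe had 16.0, 43.7 and 116 CPM.

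At the entry of pyruvate into mitochondria, Pdk1 fell in both genotypes. Pdk1 had 29.1, 8.64 and 38.7 CPM in stimulated Gpx4-deficient cells, against 92.3, 94.2 and 116 CPM in unstimulated Gpx4-deficient cells (log2 fold change -1.99 with SE 0.41, adjusted p = 0.00629, by edgeR). Pdk1 had 30.5, 27.9 and 30.6 CPM in stimulated wild-type cells, against 145, 119.9 and 130.0 CPM in unstimulated wild-type cells (log2 fold change -2.15 with SE 0.41, adjusted p = 0.00418, by edgeR). No single library of the comparison decided either call, and stimulated Gpx4-deficient replicate 2 had the lowest value. Mpc1 had 101, 99.4 and 124 CPM in stimulated Gpx4-deficient cells, against 62.1, 64.3 and 66.2 CPM in unstimulated ones (log2 fold change 0.75 with SE 0.17, adjusted p = 0.0109, by edgeR). In wild-type cells Mpc1 had 98.0, 91.7 and 89.2 CPM with stimulation, against 70.1, 71.2 and 56.4 CPM without (log2 fold change 0.50 with SE 0.17, adjusted p = 0.0897, by edgeR), apart but not called by edgeR, while DESeq2 called it. Its partner Mpc2 was not called, at -0.24 (SE 0.39) in Gpx4-deficient and -0.52 (SE 0.40) in wild-type cells. Pdha1 and Pdhb, the E1 subunits of pyruvate dehydrogenase, lay between -0.67 and -0.06 in both genotypes, and were not called.

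**Figure D4:**
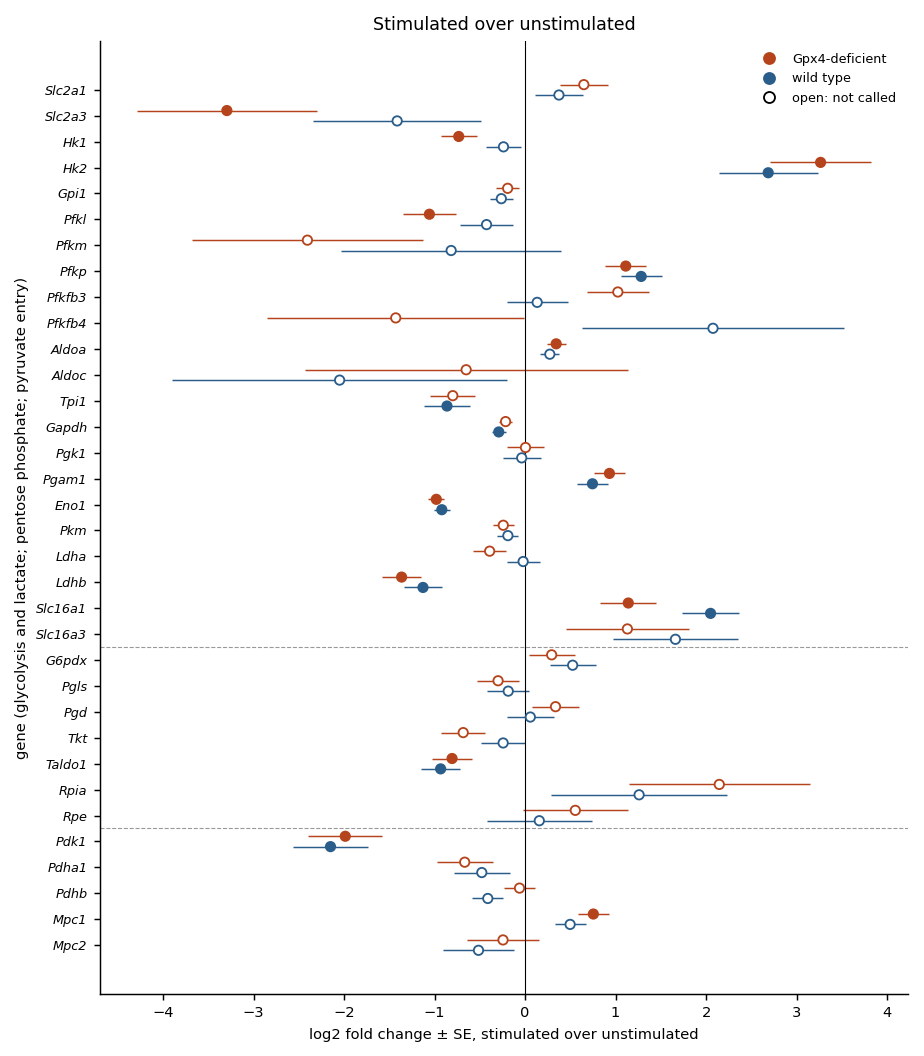
log2 fold change of stimulated over unstimulated cells (horizontal axis) with its SE for the 34 members (vertical axis), in Gpx4-deficient and in wild-type cells; dashed lines part the 3 gene groups and filled points are called. Hk2 lies farthest to the right, at 3.26 and 2.69, and Slc2a3 in Gpx4-deficient cells farthest to the left, at -3.29.

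Isoenzyme proportions within a library, from CPM per kilobase of annotated exon, are given as a description. Hk2 made up 39.3, 15.5 and 17.6% of Hk1 plus Hk2 in stimulated Gpx4-deficient cells, against 0.540, 3.04 and 2.15% in unstimulated ones. In wild-type cells the share was 33.1, 27.5 and 21.9% with stimulation, against 4.95, 4.68 and 4.78% without. Without stimulation every Gpx4-deficient library had a lower Hk2 share than every wild-type library. Ldha per Ldhb was 12.3, 15.0 and 7.16 in stimulated Gpx4-deficient cells and 4.90, 5.36 and 6.17 in unstimulated ones. In wild-type cells it was 15.7, 12.8 and 13.5 with stimulation and 6.79, 6.83 and 5.99 without. The ratio was higher in every stimulated library than in every unstimulated one of its genotype, with Ldhb called lower and Ldha not called. Pfkp made up 48.9, 78.0 and 81.7% of the phosphofructokinase transcripts in stimulated Gpx4-deficient cells, against 22.0, 33.2 and 40.1% in unstimulated ones. In wild-type cells the Pfkp share was 61.5, 65.1 and 66.5% with and 31.3, 42.7 and 29.5% without stimulation. Slc2a1 was a larger share of Slc2a1 plus Slc2a3, with 99.9, 92.8 and 87.5% in stimulated Gpx4-deficient cells, against 40.7, 51.0 and 43.7% in unstimulated ones. Lengths of the longest annotated transcript in place of all exons moved each proportion but left these orders between groups in place.

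**Figure D5:**
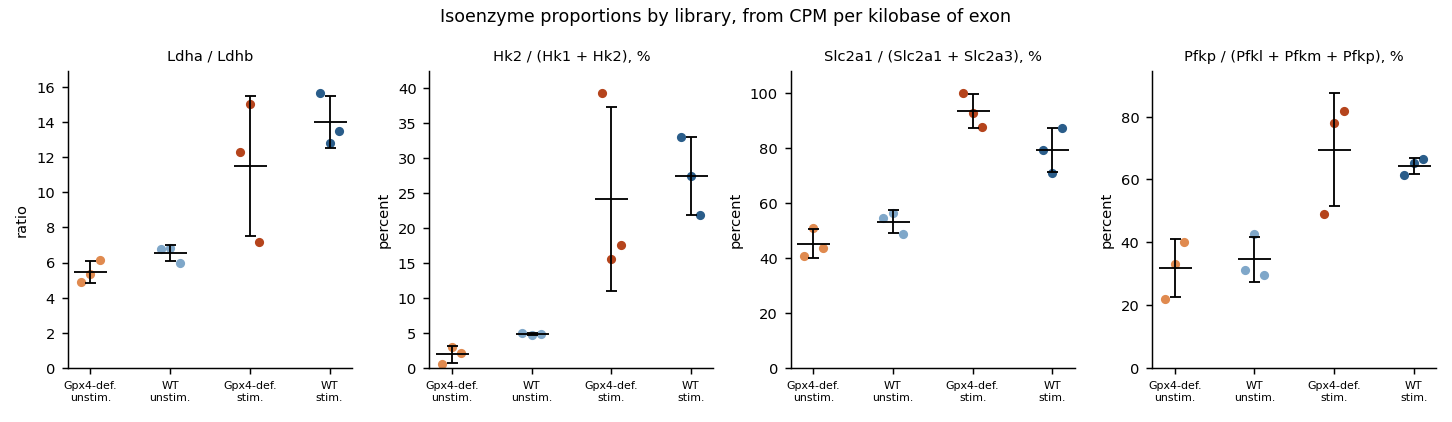
The ratio of Ldha to Ldhb and the percent of hexokinase, glucose transporter and phosphofructokinase transcripts held by Hk2, Slc2a1 and Pfkp (vertical axes, from 0), in each library by group; points are libraries, bars the mean ± SD (n = 3). In each panel every stimulated library lies above every unstimulated library of its genotype.

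Per kilobase of exon, 5 members led in each group, Gapdh, Ldha, Eno1, Pkm and Aldoa, and their order depended on the length used. Over all annotated exons, in unstimulated Gpx4-deficient cells Gapdh led with a mean of 339 CPM per kilobase, then Eno1 (319), Ldha (309), Pkm (253) and Aldoa (157). In unstimulated wild-type cells Ldha led (466), then Gapdh (414), Eno1 (391), Pkm (338) and Aldoa (158). With stimulation Gapdh led in Gpx4-deficient cells (292, with Ldha at 236) and Ldha in wild-type cells (459, with Gapdh at 339). Over the longest annotated transcript the same 5 led in another order. Eno1 was then first in unstimulated cells, with a mean of 845 CPM per kilobase in Gpx4-deficient cells (Ldha 564, Pkm 520, Gapdh 426 and Aldoa 375), and 1037.7 CPM per kilobase in wild-type cells (Ldha 850.0, Pkm 694, Gapdh 521 and Aldoa 379). With stimulation Aldoa was first in Gpx4-deficient cells (476, with Pkm at 440, Ldha at 430, Eno1 at 428 and Gapdh at 367). In stimulated wild-type cells Ldha was first (837, with Pkm at 608, Eno1 at 548, Aldoa at 458 and Gapdh at 426).

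Other genes of the same pathways, listed for comparison, were not called between genotypes by edgeR. The calls were 0 of 21 tested further glycolysis genes, 0 of 11 further pentose phosphate and ribose genes and 0 of 12 further pyruvate entry genes, with or without stimulation. Unadjusted p was under 0.05 for 1, 0 and 1 of them without stimulation and for 5, 0 and 0 with it. DESeq2 called 1, 0 and 0 without stimulation and 3, 0 and 0 with it, all lower in Gpx4-deficient cells. Among 19 tested regulators of glucose use, edgeR called 1, Txnip, higher in stimulated Gpx4-deficient cells (5.26%, against 1.03% of all tested genes). Unadjusted p was under 0.05 for 0 of the 19 without and 3 with stimulation (15.8%, against 18.3% of all tested genes). DESeq2 called 0 of them without stimulation and 2 higher with it, where it called 877 of 22109 genes higher. Txnip, an arrestin-like protein known to limit glucose uptake by removing transporters from the surface, had 463, 316 and 444 CPM in stimulated Gpx4-deficient cells, against 187, 182 and 169.6 CPM in stimulated wild-type cells (log2 fold change 1.18 with SE 0.16, adjusted p = 0.00344, by edgeR). In unstimulated cells Txnip had 445, 437 and 580.3 CPM in Gpx4-deficient and 436, 397 and 481 CPM in wild-type libraries (0.15, SE 0.16). Stimulated wild-type cells were thus low, and the other 3 groups overlapped. The interaction had a log2 difference of 1.03 (SE 0.23, adjusted p = 0.128, by edgeR), and was called by DESeq2 (adjusted p = 0.000818), and by edgeR without stimulated Gpx4-deficient replicate 2 (0.0143). Hif1a and Myc, transcription factors that drive glycolytic genes, were higher with stimulation in both genotypes (edgeR), and were not called between genotypes. Hif1a averaged 1315 ± 159 CPM in stimulated Gpx4-deficient and 1292 ± 126 CPM in stimulated wild-type cells (SD, n = 3 each). Myc averaged 1220.1 ± 118 CPM in stimulated Gpx4-deficient and 1246 ± 88.9 CPM in stimulated wild-type cells (SD, n = 3 each). Of 13 tested hypoxia response genes, 0 were called between genotypes by edgeR, with unadjusted p under 0.05 for 0 without and 2 with stimulation, and DESeq2 called 0 and 1.

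Markers of other cells were low beside those of Treg and T cells. The 9 Treg and T cell markers summed to 4626 to 4928 CPM in unstimulated Gpx4-deficient and 4823 to 4854 CPM in unstimulated wild-type cells. With stimulation the sums were 7847 to 8899.9 CPM in Gpx4-deficient and 7567 to 7864 CPM in wild-type cells. In stimulated cells 8 of the 9 had positive log2 fold changes and 1 negative. Of these, edgeR called 1 higher (11.1%, against 1.03% of all tested genes), Ikzf2 (0.61, adjusted p = 0.0203, by edgeR). The negative one, Tnfrsf18, averaged 1270.5 CPM in stimulated Gpx4-deficient and 1920 CPM in stimulated wild-type cells. Without stimulation it averaged 375 and 545 CPM, and of the 9, 5 were positive, 4 negative and 0 called. The 10 neutrophil markers, of which Ly6g and Cxcr2 were at 0 in all unstimulated libraries, summed to 4.96 to 11.8 CPM in unstimulated Gpx4-deficient and 29.5 to 99.7 CPM in unstimulated wild-type cells. In stimulated cells they summed to 4.95, 47.9 and 74.8 CPM in Gpx4-deficient and 45.3, 59.3 and 21.4 CPM in wild-type libraries, and these groups overlapped. Retnlg was at 0 in all stimulated libraries. Of the erythroid list, 5 markers are given, and they separated the genotypes in opposite directions. They summed to 25.6 to 38.4 CPM in unstimulated Gpx4-deficient and 44.0 to 62.2 CPM in unstimulated wild-type cells, and to 33.1 to 54.2 CPM in stimulated Gpx4-deficient and 8.53 to 22.9 CPM in stimulated wild-type cells. By edgeR 0 of the 5 were called between genotypes, with unadjusted p under 0.05 for 0 without and 3 with stimulation, and DESeq2 called 3 higher in stimulated Gpx4-deficient cells. The 6 monocyte and macrophage markers summed to 118 to 159.7 CPM in unstimulated Gpx4-deficient and 135 to 243 CPM in unstimulated wild-type cells. With stimulation they summed to 65.2 to 89.9 CPM in Gpx4-deficient and 25.8 to 63.2 CPM in wild-type cells. The B cell, dendritic cell, and CD8 and NK lists each summed to at most 62.7 CPM in any library. The 4 stromal and epithelial genes summed to at most 211 CPM, in unstimulated Gpx4-deficient replicate 3, where Pecam1 alone had 191 CPM. Marker sums do not measure the share of other cells or how much member RNA these cells bring, and their part in the results was not tested. The 8 heat shock genes summed to 12549 to 16669 CPM in unstimulated Gpx4-deficient and 4432 to 4686 CPM in unstimulated wild-type cells. With stimulation the sums were 3896 to 4481 CPM in Gpx4-deficient and 2702 to 2900 CPM in wild-type cells. Of these 8 heat shock genes, edgeR called 4 higher without stimulation (50%, against 0.0540% of all tested genes) and 3 with it (37.5%, against 1.03%). DESeq2 called 6 of the heat shock genes higher in either state. Their part in the lower glycolytic levels was not tested either.

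Some members share sequence with near-identical copies or overlapping genes, and their counts are uncertain to that extent. Copies of at least 95% identity were found in the table for Gapdh (81), Eno1 (4), Pgk1 (2), Ldha (2), and 1 each for Tpi1, Pgam1, Pkm, Pdhb and Mpc1. Adding the copies' counts to the member changed none of the calls given. The libraries were made with a strand-specific kit, per the labels, but whether the counting used strand is not given in the sources used here. Pfkp shares 748 exon bases with Pitrm1 on the opposite strand, G6pdx 418 with Ikbkg and Rpe 558 with Kansl1l, while Pgls shares 776 with Fam129c on its own strand. Reads from these stretches may have been counted for either gene.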

How the data were processed

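RNA of sorted Treg cells was sequenced from 600 ng per sample with a strand-specific mRNA kit, per the labels. The authors deposited 1 table of RSEM expected counts per gene, per the file's name and its values, of which 14.8 to 18.1% per library are not whole numbers. The genome was GRCm38, per the submitters' processing notes, and no aligner, counting setting or software version is named by the labels or file (not given in the sources used here). Expected counts were rounded to whole numbers, genes with low counts were removed with filterByExpr, and 14827 genes were fitted in all 12 libraries as 4 group means with edgeR 4.0.16 (TMM scaling, robust quasi-likelihood F test, 8 residual degrees of freedom) under R 4.3.3. P-values were adjusted by the Benjamini-Hochberg method over all tested genes in each of 5 comparisons. CPM use the TMM-scaled library sizes, and 1 CPM corresponds to about 24.6 to 31.9 counts. SE is the log2 fold change over the square root of F.

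The members and the gene lists were chosen with earlier results of these data known. Values by library are given for members called in any comparison and for the 6 members of smallest p in each genotype comparison. Others named were chosen after their values were seen. Alternatives were DESeq2 1.42.0, RLE scaling, no filter, the replicate number as a block, the libraries of the comparison alone, the counts of near-identical copies added, and leaving out each library. The effect of leaving out a library was examined only in comparisons that use its group. Replicate numbers come from the sample titles. Deviations of same-numbered libraries correlated at -0.02 to 0.03, so the numbers were not taken to pair libraries. Promoter sequences are from RefSeq (GRCm38.p6), matched by symbol, and gene positions from GENCODE vM21. Sums and ratios of CPM have no test. Of 1 list, 1 marker gene is not reported here.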

Additional observations from a re-analysis of the deposited data

How the results depend on the processing

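Of the 170 log2 fold changes (34 members in 5 comparisons), 43 changed sign under at least 1 alternative, and none of these 43 was called by edgeR or DESeq2 over all libraries. Over the 170, DESeq2 made 37 calls and edgeR 24, all of which DESeq2 shared. For the 35 values that edgeR called or that had the smallest p between genotypes, RLE scaling or adding near-identical copies changed no call. Members called lower in Gpx4-deficient cells numbered 2 by DESeq2 without stimulation (edgeR 0). With stimulation they numbered 6 by DESeq2, 0 with the replicate block (adjusted p of Ldha 0.0562, edgeR) and 0 in a fit of that comparison's libraries alone (edgeR on all libraries 1). Members called on stimulation of Gpx4-deficient cells fell to 2 higher and 2 lower in a fit of those 6 libraries (6 and 7 over all libraries). Without the filter on low counts Aldoa lost its call there (0.138). The replicate block ended 5 of the 35 calls or values: Ldha between stimulated genotypes, Slc2a3 (0.0753), Aldoa (0.0609) and Slc16a1 (0.0631) on stimulation of Gpx4-deficient cells, and Tpi1 (0.0588) on stimulation of wild-type cells. The titles repeat each replicate number in the unstimulated and the stimulated libraries of a genotype. The block treated a number as the same in both genotypes, so it did not model pairing within a genotype. No label says whether same-numbered libraries share an animal or day, so these calls rest on the fit without the block.

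Over all genes, calls between unstimulated genotypes numbered 10 by edgeR, 215 by DESeq2 and 3 with the block. Between stimulated genotypes they numbered 337, 1858 by DESeq2, 171 with the block and 22 from those libraries alone. On stimulation they numbered 2266, 3955 by DESeq2 and 1022 from those libraries alone in Gpx4-deficient cells, and 1709, 2899 and 3499 in wild-type cells. In the interaction they numbered 30, 520 by DESeq2 and 5 with the block. The cause of these differences was not tested.

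Without 1 library of the comparison, all-gene calls ranged over 3 to 14 between unstimulated genotypes, with 3 without wild-type replicate 1 or 2 and 5 without Gpx4-deficient replicate 2. Between stimulated genotypes the range was 117 (without wild-type replicate 1) to 658 (without Gpx4-deficient replicate 1). Without Gpx4-deficient replicate 2 it was 625, and without wild-type replicate 2 or 3 it was 158 and 164. In the interaction the range was 2 to 167, lowest without any unstimulated wild-type library and highest without stimulated Gpx4-deficient replicate 2. Members called lower ranged over 0 to 7 between stimulated genotypes. On stimulation they ranged over 3 (without unstimulated replicate 1) to 12 (without stimulated replicate 1) in Gpx4-deficient cells, and over 3 to 5 in wild-type cells, with 3 without stimulated wild-type replicate 1 or 2. In the interaction they ranged over 0 to 1. Per-kilobase levels of 26 of the 34 members in unstimulated wild-type cells, Eno1, Ldha, Pkm, Gapdh and Aldoa among them, moved by more than 1 SD when the longest transcript replaced all exons.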
